A study of Mus musculus with 6 samples.

Results

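A set of 10 genes of macrophage lipid handling was followed in a pair of mouse bone marrow progenitor populations. They are Lpl, Lipa, Cd36, Msr1, Scarb1, Fabp5, Plin2, Apoe, Abca1 and Abcg1, chosen by symbol for their part in lipoprotein uptake, lipid storage and cholesterol efflux, and all 10 were found among the 22271 genes of the count table and had enough reads to be tested. The choice was made with results of this comparison in view, so the levels and differences of these 10 genes are given as a description, without p-values. Calls past the test threshold are told for them as part of that description and are not used as support. The RNA was total RNA of progenitors sorted by flow cytometry from the marrow of C57BL/6JRj mice, which the sample titles call WT. Both groups carry no other allele or treatment in the labels, which give no age, sex or number of animals. One group of 3 libraries is labelled CD27 high MODP and the other, also of 3, CD27 low MOP. The series' title places a progenitor of macrophages and osteoclasts below one shared with dendritic cells.

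Macrophages take up lipoproteins and modified lipids through scavenger and lipoprotein receptors, split cholesteryl esters and triglycerides in the lysosome, and either store the products in lipid droplets or pass cholesterol out of the cell. Cellular cholesterol leaves through ABC transporters to apolipoproteins and lipoprotein particles, and oxysterol-sensing LXR receptors with their RXR partners switch these transporters on. Osteoclasts, too, depend on lipoprotein cholesterol for fusion and survival.

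Library totals were 10701425 to 15892640 counts. MODP libraries held 35.3 to 38.9 CPM of the sort marker Cd27 (CPM, counts per 1000000 with TMM-scaled library sizes) and MOP libraries 3.52 to 4.56 CPM, and Kit and Flt3 were likewise lower in every MOP library and Csf1r, the M-CSF receptor, higher. Replicate 2 of both groups stood apart from the other libraries on the second principal component (22.9% of the variance). Summed over 9 neutrophil markers, replicate 2 held 16703.3 CPM (MODP) and 11660.3 CPM (MOP), against 2167 to 4993 CPM in the other 4 libraries. Markers of 12 stromal, fat and vessel genes summed to 3237 CPM in MODP replicate 2 and to 184 to 549 CPM elsewhere, and the excess was in the collagen genes Col1a1 and Col1a2, while Adipoq, the adipocyte marker, was at or near 0. The sum of 9 basophil, mast cell and eosinophil markers was higher in every MOP library, at 3336 to 4940 CPM against 474 to 1210 CPM. Of these 9 genes 7 passed the test described below, all higher in MOP. That test called 16.3% of all tested genes higher and 14.9% lower. On a list of 11 erythroid and megakaryocyte genes 6 passed, all higher in MOP, with sums of 166 to 526 CPM in MODP libraries and 513 to 699 CPM in MOP libraries. Of the 11 genes 9 had a positive log2 fold change. Pf4 went the other way, at -1.78 with every MOP library below, and did not pass. On a list of 10 B, T and NK cell genes 4 passed, all lower in MOP, with sums of 273 to 369 CPM against 104 to 175 CPM. No marker of these lists was at 0 in all libraries. The called genes of the basophil and erythroid lists moved in the direction of the lipid genes that were higher in MOP. Those of the B, T and NK cell list moved in that of the lower ones. The part of such cells in those differences was not tested. In sorted bulk RNA, fewer cells of a type and less RNA per cell cannot be told apart.

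MOP libraries held more transcript of most genes for uptake, storage and lysosomal ester cleavage than MODP libraries, by more than 3-fold for Lpl and Msr1 and by smaller margins for the others. The cholesterol transporter Abca1 was the sole member with a negative difference. Of the 10 genes, 6 were past an adjusted p of 0.05 in the edgeR fit, all higher in MOP (Lpl, Msr1, Plin2, Scarb1, Abcg1 and Lipa), where 16.3% of the 12850 tested genes were called higher (2095 genes) and 14.9% lower (1913 genes). Under upper-quartile scaling that split became 1692 and 2452. For 7 of the 10 the groups shared no range of values, 6 with MOP above and 1 with MOP below, against 47.6% of all tested genes. Because the genes were chosen with this contrast known, nothing is read from these shares. The median log2 fold change of the 10 was 0.36, and that of all tested genes -0.01. With the replicate number as a block, 6 were called higher and 1, Abca1, was called lower.

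**Figure D1:**
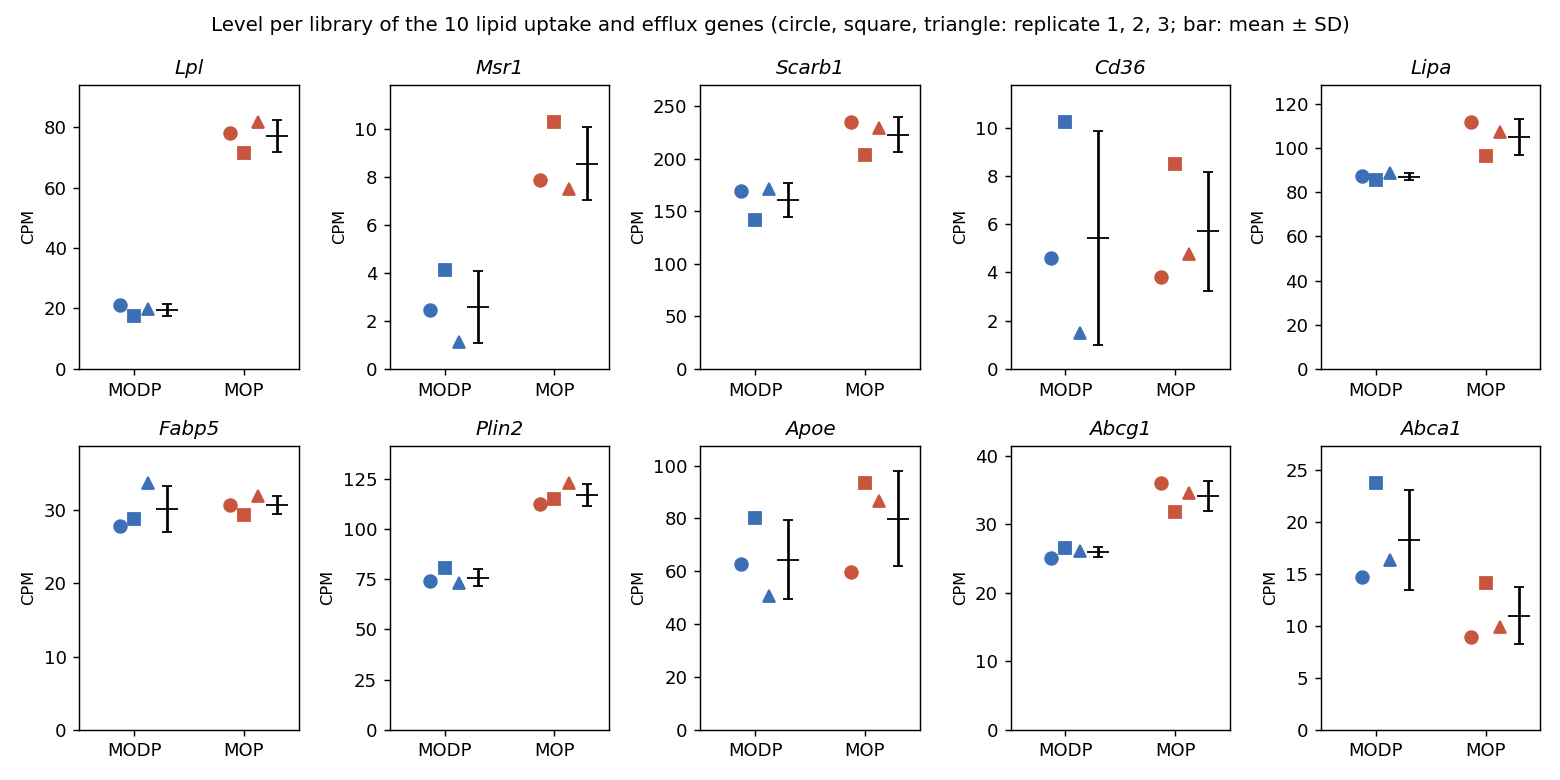
CPM of each of the 10 genes in every library (y axes start at 0), with MODP in blue, MOP in red, marker shape for the replicate number, and a bar for the mean ± SD of 3 libraries. The groups are separated for Lpl, Msr1, Scarb1, Lipa, Plin2 and Abcg1 with MOP above and for Abca1 with MOP below, and they overlap for Cd36, Fabp5 and Apoe.

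Lpl encodes lipoprotein lipase, the enzyme that frees fatty acids from the triglycerides of lipoproteins outside the cell. MODP replicates 1, 2 and 3 held 21.2, 17.4 and 19.9 CPM of Lpl, and MOP replicates 1, 2 and 3 held 78.2, 71.3 and 81.7 CPM. Every MOP library was more than 3 times above every MODP library, and no library of either group stood apart. The log2 fold change was 1.98 ± 0.09 (SE), or 3.95-fold, larger than that of 99.0% of tested genes. It stayed between 1.91 and 2.04 in all 14 alternative fits, and it was 1.96 without both replicate 2 libraries.

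Msr1, the class A scavenger receptor that binds acetylated and oxidised LDL, was among the least abundant members. MODP replicates held 30, 44 and 16 reads of Msr1 (2.46, 4.13 and 1.12 CPM), and MOP replicates held 107, 161 and 99 reads (7.87, 10.3 and 7.50 CPM). All MOP libraries lay above all MODP libraries, with replicate 2 the highest of each group. The log2 fold change was 1.76 ± 0.41 (SE), or 3.39-fold, and its call was lost without MODP replicate 1, where the value was 1.74. The fold change ran from 1.38 without MODP replicate 3 to 2.27 without MODP replicate 2.

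Scarb1 (SR-BI), a class B receptor that takes cholesteryl esters from HDL and also passes free cholesterol to it, had the highest CPM of the members. The MODP replicates, in order of number here and below, showed 169, 142 and 171 CPM and the MOP replicates 235, 204 and 230 CPM. Replicate 2 was the lowest library of both groups, and the groups did not overlap. The log2 fold change was 0.47 ± 0.09 (SE). Cd36, the other class B receptor, which binds oxidised LDL and long-chain fatty acids, behaved differently. Cd36 reached 4.60, 10.2 and 1.47 CPM in the MODP replicates and 3.82, 8.50 and 4.77 CPM in the MOP replicates. Replicate 2 was the highest library of both groups, the groups overlapped fully, and the spread within MODP exceeded any difference between the groups (log2 fold change 0.10 ± 0.71, SE). Without both replicate 2 libraries the value was 0.53 and its SE 0.50, and the sign changed when single libraries were left out.

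Lipa is the lysosomal acid lipase, which cleaves the cholesteryl esters and triglycerides of ingested lipoproteins. The MODP replicates lay close together, at 87.1, 85.4 and 88.5 CPM, and the MOP replicates were at 112, 96.2 and 107 CPM. The MOP libraries lay just above, with replicate 2 closest to MODP, and the log2 fold change was 0.27 ± 0.07 (SE). Leaving out the first MODP replicate, or MOP replicate 1 or 3, ended the call. Fabp5, a fatty acid binding protein that carries fatty acids in the cytosol, had 27.8, 28.8 and 33.8 CPM in the MODP replicates against 30.7, 29.4 and 32.0 CPM in the MOP replicates. Its groups overlapped, the log2 fold change was 0.02 ± 0.09 (SE), and the sign turned under upper-quartile scaling. Of the 3208 31-mers of its longest transcript, 8.67% also occur in transcripts of 21 other genes of GENCODE M21. That transcript is longer than its longest coding one (0.987 kb), for which the share was not computed. A part of its reads may thus be ambiguous.

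Plin2, the perilipin that coats lipid droplets in most cells other than adipocytes, was measured at 74.1, 80.7 and 73.0 CPM in the MODP replicates, and the MOP replicates gave 113, 115 and 123 CPM. Each group was tight and the groups were well apart, with a log2 fold change of 0.63 ± 0.06 (SE), or 1.54-fold. It shares 8.45% of its 31-mers with the gene Gm12551.

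The efflux members split. Abca1, the transporter that loads cholesterol and phospholipid onto lipid-poor apolipoprotein A-I, was present at 14.7, 23.8 and 16.4 CPM in the MODP replicates but at 8.90, 14.1 and 9.92 CPM in the MOP replicates. Every MOP library lay below every MODP library, though MOP replicate 2 came close to MODP replicate 1. The log2 fold change was -0.73 ± 0.24 (SE), with MODP 1.65-fold above MOP. Replicate 2 was the highest library of both groups by a like margin, 0.40 and 0.38 above its group mean on the log2 scale. Same-numbered libraries deviated in the same direction in all 3 pairs. With the replicate number as a block the estimate was -0.73 with an SE of 0.10, and Abca1 was called, as it also was under upper-quartile scaling, with DESeq2, without MOP replicate 2 and without both replicate 2 libraries.

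Abcg1, the transporter that passes cholesterol to mature HDL, went the other way. The MODP replicates had 25.1, 26.6 and 26.1 CPM and the MOP replicates 36.1, 31.8 and 34.6 CPM, without overlap and with a log2 fold change of 0.40 ± 0.08 (SE). Apoe, the apolipoprotein that macrophages secrete as a cholesterol acceptor and that binds lipoprotein receptors, gave 62.6, 80.1 and 50.5 CPM in the MODP replicates and 59.6, 93.5 and 86.7 CPM in the MOP replicates. MOP replicate 1 was below 2 of the 3 MODP libraries while the other MOP libraries were the highest of all, so the groups overlapped (log2 fold change 0.32 ± 0.24, SE). C1qa, a complement gene of mature tissue macrophages, had the same order of libraries within each group, at 6.40, 10.6 and 4.98 CPM (MODP) and 6.40, 19.4 and 16.4 CPM (MOP). The sum of 13 mature macrophage markers, among them C1qa, C1qb, C1qc, Mertk, Vcam1 and Slc40a1, was 201, 297 and 175 CPM over the MODP replicates and 215, 432 and 346 CPM over the MOP replicates, and 1 of the 12 tested markers (Adgre1) was past the threshold, higher in MOP. Of all tested genes 16.3% were called higher in MOP. Yet 11 of these 12 markers had a positive log2 fold change, and Cd163 a negative one (-0.12). Their median was 0.80, beside 0.36 for the 10 members and -0.01 for all tested genes. The libraries of the groups overlapped for 11 of the 12. The part of mature macrophages in the Apoe level was not tested.

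**Figure D2:**
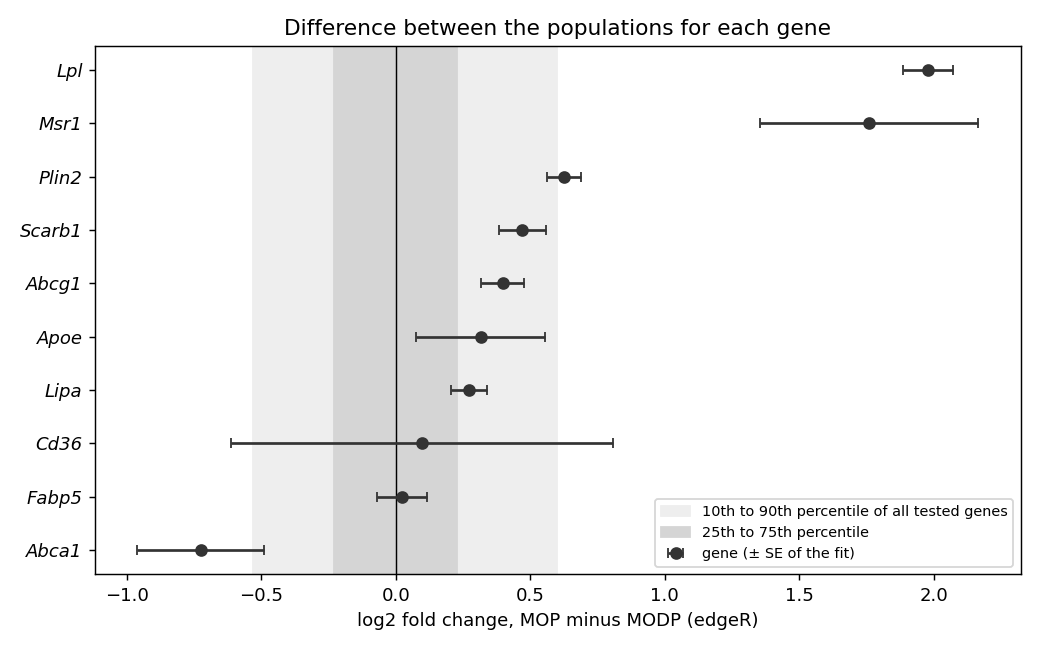
Log2 fold change of each gene (MOP minus MODP, points) with the SE of the edgeR fit (bars), over the range of all tested genes (light band, 10th to 90th percentile, -0.53 to 0.60; dark band, 25th to 75th, -0.23 to 0.23). Lpl, Msr1 and Plin2 lie right of the light band, Abca1 left of it, and Cd36 has the widest error.

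A pair of these genes with differences of opposite sign and groups that did not overlap, the droplet gene Plin2 and the efflux gene Abca1, is shown with its promoters. The RefSeq promoter table held windows for 5 of the 10 members (Lipa, Cd36, Apoe, Abca1 and Plin2). Printed are the 250 bases before the RefSeq start, in GRCm38.p6 and on the minus strand, at chr4:86670060-86670309 for Plin2 and chr4:53159896-53160145 for Abca1. Capitals mark matches on either strand to AGGTCA (the half-site of LXR, RXR and PPAR receptors), to CACGTG (the E-box that TFE3 and TFEB bind) and to GGTNANNNNNGGTCA, a relaxed form of the repeat with 4 bases between half-sites (DR4) that LXR and RXR recognise.
Plin2: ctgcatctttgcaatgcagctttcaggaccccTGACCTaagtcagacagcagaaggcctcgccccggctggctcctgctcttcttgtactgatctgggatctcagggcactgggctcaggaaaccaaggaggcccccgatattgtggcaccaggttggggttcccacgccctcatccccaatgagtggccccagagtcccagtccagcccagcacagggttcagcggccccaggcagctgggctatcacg
Abca1: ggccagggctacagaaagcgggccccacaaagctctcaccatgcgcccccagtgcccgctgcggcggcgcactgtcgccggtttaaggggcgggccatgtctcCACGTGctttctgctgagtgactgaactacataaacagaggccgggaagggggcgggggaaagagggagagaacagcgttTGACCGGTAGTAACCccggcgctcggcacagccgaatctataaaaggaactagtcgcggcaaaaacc
Plin2 held AGGTCA on the opposite strand, 218 to 213 bases before the start, as 14.0% of 32851 mouse promoter windows of this length did on either strand. Abca1 held CACGTG 147 to 142 bases before its start, found in 6.02% of windows, and the relaxed DR4 on the opposite strand 67 to 53 bases before it, found in 0.177%. That relaxed pattern was chosen after the Abca1 window had been read. Of the other members, Cd36 held AGGTCA 228 to 223 bases before its RefSeq start, and the Lipa window and the 3 Apoe windows held none of these. The Cd36 window, at chr5:17835897-17836146, lies inside the annotated minus-strand gene, which reaches to 17888801. The bases checked after that Cd36 start were in 0 of its GENCODE M21 transcripts, so this start was not borne out. The strict repeats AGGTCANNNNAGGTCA and AGGTCANAGGTCA and the PU.1 core GAGGAAGT were in no member's window, and 0.0152%, 0.0335% and 2.44% of all windows held them. A match is a stretch of letters and says nothing of binding in these cells.

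Levels between genes were compared per kilobase of the longest protein-coding GENCODE M21 transcript. In MODP, Scarb1 was highest at 63.8 ± 6.53 CPM per kb (SD, n = 3), followed by Apoe at 45.8 ± 10.6, Plin2 at 40.2 ± 2.20, Fabp5 at 30.5 ± 3.22 and Lipa at 29.3 ± 0.532 CPM per kb. Then came Lpl at 4.74 ± 0.472, Abcg1 at 4.45 ± 0.127, Abca1 at 1.78 ± 0.470, Cd36 at 1.60 ± 1.31 and Msr1 at 0.708 ± 0.415 CPM per kb. Neighbours in this order overlapped in their libraries except Plin2 with Fabp5, Lipa with Lpl, and Abcg1 with Abca1. In MOP, Scarb1 (88.4 ± 6.61 CPM per kb) stood clear of Plin2 (62.0 ± 2.92) and Apoe (56.8 ± 12.8), which overlapped. Lipa (35.4 ± 2.69) and Fabp5 (31.1 ± 1.30) met at the edges of their ranges, Lpl (18.7 ± 1.29) now stood far above Abcg1 (5.86 ± 0.378), and Msr1 (2.35 ± 0.417), Cd36 (1.68 ± 0.727) and Abca1 (1.07 ± 0.270) closed the order, each overlapping its neighbour. The top of the order depends on the length used: by the union of all annotated exons, Apoe and Plin2 ranked above Scarb1 in both groups.

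For most of the 10 genes replicate 2 deviated in the same direction in both groups, but not for Plin2 and Abcg1. Replicate 2 was the highest library of both groups for Cd36, Msr1, Apoe and Abca1 and the lowest of both for Lpl, Scarb1 and Lipa. The deviations in replicate 2 were largest for Cd36, at 1.17 in MODP and 0.61 in MOP on the log2(CPM + 0.5) scale, and were within 0.18 of the group mean in either direction for Lpl, Scarb1, Lipa, Fabp5, Plin2 and Abcg1. S100a8, a neutrophil gene, deviated by 1.65 and 1.07 in the same libraries and C1qa by 0.57 and 0.59. Whether RNA of such cells raised Cd36, Msr1, Apoe and Abca1 there was not tested. The direction of the difference between the groups was the same without both replicate 2 libraries for all 10 genes, with log2 fold changes of 2.12 for Msr1, 0.37 for Apoe and -0.72 for Abca1.

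**Figure D3:**
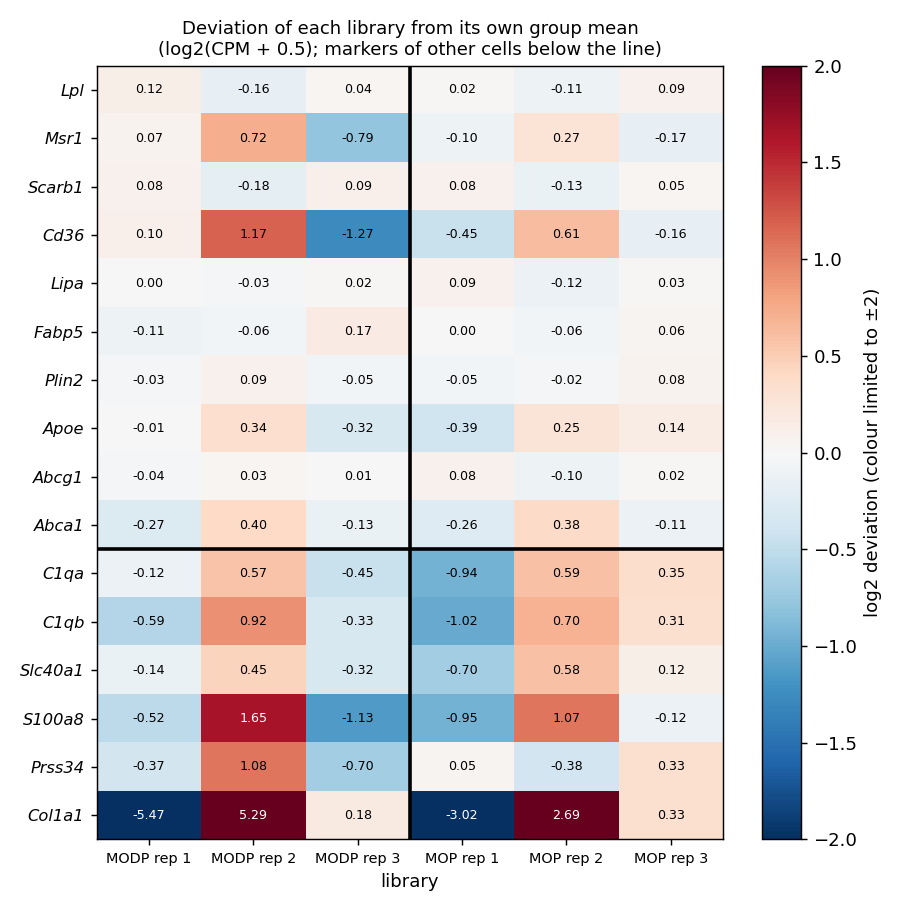
Deviation of each library from the mean of its own group on the log2(CPM + 0.5) scale (columns, libraries; rows, the 10 genes above the line and markers of other cells below it), with the value printed in each cell and colour limited to ±2. Cd36, Msr1, Apoe and Abca1 are positive in replicate 2 of both groups together with C1qa, C1qb, Slc40a1, S100a8 and Col1a1, and Lpl and Scarb1 are negative there.

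For each member, the tested genes with the most similar log2(CPM + 0.5) profile over the 6 libraries were listed by Pearson's r, 2 for each. The libraries form 2 groups, so a high r mostly restates a shared group difference, and with 6 points many genes come close: 749 genes had an r above 0.95 with Lpl and 694 with Plin2. The closest to Lpl were Pcmt1 and Anxa4 (r = 0.9995 and 0.9985), to Plin2 Susd6 and Tspo, to Scarb1 Abhd15 and Ctsz, to Abcg1 Cuedc1 and Hgf, to Msr1 Sh3tc2 and Rhog, and to Lipa Zfp747 and Poln. Apoe, whose groups overlapped, had 15 genes above 0.95, led by the integrin gene Itgad (r = 0.999) and C1qa (0.975); Abca1, whose groups did not overlap, had 138, led by the platelet factor gene Pf4 (0.993) and Zfp354c (0.990). Cd36 was closest to Rnf44 and Ypel4 (0.990 and 0.989) and Fabp5, with 4 genes above 0.95, to Ago3 and Ei24 (both 0.975).

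Other genes of these pathways were taken from 6 lists by known function. The lists were drawn up with earlier results of these data known, so their shares and adjusted p-values are given as a description. Of 147 genes, 143 were in the table and 116 were tested, with 42 called higher in MOP, 11 called lower and 63 uncalled. The shares were 36.2% higher and 9.48% lower, beside 16.3% and 14.9% of all tested genes, and the median log2 fold change was 0.14. Each adjusted p-value below comes from the edgeR fit and is adjusted by Benjamini-Hochberg over all 12850 genes.

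**Figure D4:**
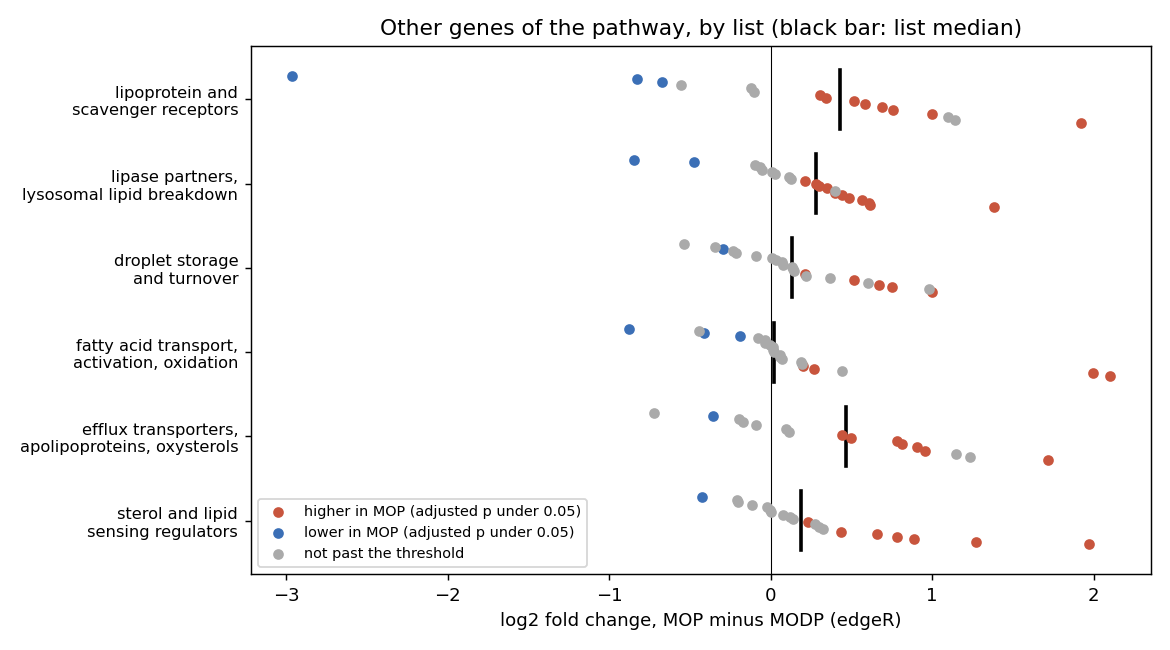
Log2 fold change (x axis, MOP minus MODP) of every tested gene of the 6 lists (rows), with genes past an edgeR adjusted p of 0.05 in red (higher in MOP) or blue (lower) and the rest in grey, and a black bar at each list's median. Medians run from 0.02 for fatty acid transport and oxidation to 0.47 for efflux, and Vldlr lies far to the left at -2.96.

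Lipoprotein and scavenger receptors moved in both directions. The test called 8 of 16 higher in MOP (50%) and 3 lower (18.8%), beside 16.3% and 14.9% of all tested genes. It left 5 uncalled, and the median log2 fold change was 0.43. Vldlr, a receptor for triglyceride-rich particles, fell from 2.80 ± 0.464 to 0.347 ± 0.111 CPM (SD, n = 3; edgeR adjusted p = 0.00071). Cd68, a scavenger-type glycoprotein of macrophage lysosomes, rose by log2 1.00 ± 0.09 (SE, edgeR adjusted p = 0.00030), and Scarb2, the lysosomal relative of Scarb1 and Cd36, rose by log2 0.51 ± 0.06 (SE, edgeR adjusted p = 0.00096). Within the class B family, Scarb2 rose, Scarb1 was 1.39-fold higher and the groups overlapped for Cd36. Other higher receptors were Lrp1, Sort1, Lrpap1, Cxcl16 and Sorl1, and the other lower ones Lrp8 and Olr1, a scavenger receptor for oxidised lipoproteins. Marco, a class A relative of Msr1, had 1 to 5 reads in a library.

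Genes of lysosomal lipid breakdown, with partners of lipoprotein lipase, were higher in MOP for 11 of 21 tested members, lower for 2 and not past the test for 8 (median 0.28). These shares were 52.4% higher and 9.52% lower, beside 16.3% and 14.9% of all tested genes. Psap, the precursor of the saposins that help lysosomal hydrolases reach their lipids, rose from 1469, 1242 and 1073 CPM to 3725, 3056 and 3074 CPM (log2 1.38 ± 0.13, SE, edgeR adjusted p = 0.00088). Npc2, which binds cholesterol in the lysosome and hands it to Npc1 for export, rose by log2 0.48 ± 0.05 (SE, edgeR adjusted p = 0.00052). Asah1, the acid ceramidase, rose by log2 0.61 ± 0.07 (SE, edgeR adjusted p = 0.00057). Among genes that act on lipoprotein lipase itself, Lmf2, a relative of the lipase maturation factor Lmf1, rose by log2 0.44 ± 0.07 (SE, edgeR adjusted p = 0.0024), whereas Lmf1 averaged 29.0 ± 2.65 and 27.7 ± 1.77 CPM, which did not pass. Angptl4, an inhibitor of lipoprotein lipase, fell from 16.5 ± 2.95 to 9.17 ± 1.59 CPM (edgeR adjusted p = 0.0084), opposite to Lpl. Gpihbp1, the endothelial anchor of the lipase, had 0 to 9 reads in a library and was not tested. Leaving out MOP replicate 1 gave 7 higher members, and leaving out that library, MODP replicate 1 or MOP replicate 2 gave 1 lower member.

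Of the 22 tested lipid droplet genes 5 were called higher (22.7%) and 1 lower (4.55%), beside 16.3% and 14.9% of all tested genes, and the median was 0.13. Soat1, the enzyme that makes cholesteryl esters for storage, rose from 95.4 ± 11.6 to 152 ± 14.2 CPM (log2 0.67 ± 0.10, SE, edgeR adjusted p = 0.0026), and Nceh1, which hydrolyses stored cholesteryl esters, rose by log2 0.52 ± 0.09 (SE, edgeR adjusted p = 0.0046). Lpin1, a phosphatidate phosphatase, rose by log2 0.75 ± 0.11 (SE, edgeR adjusted p = 0.0019), and Pnpla2, the first lipase of triglyceride breakdown in droplets, fell by 0.29 ± 0.05 on the log2 scale (SE, edgeR adjusted p = 0.0031). Of the perilipins beside Plin2, only Plin3 was tested, at 56.8 ± 4.77 and 58.0 ± 4.83 CPM, and it did not pass, while Plin1, Plin4 and Plin5 had 0 to 19 reads in a library. Without MODP replicate 2 there were 8 higher and 2 lower droplet genes, and without both replicate 2 libraries 2 lower ones.

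Among 21 tested genes of fatty acid transport, activation and oxidation 4 were called higher (19.0%) and 3 lower (14.3%), shares near the 16.3% and 14.9% of all tested genes, with a median of 0.02. Slc27a1, a fatty acid transport protein, fell from 17.2 ± 2.71 to 9.37 ± 0.523 CPM (edgeR adjusted p = 0.0026), and Acads, the short-chain acyl-CoA dehydrogenase, fell by 0.41 ± 0.07 on the log2 scale (SE, edgeR adjusted p = 0.0027). Acsl6, an acyl-CoA synthetase, rose from 0.938 ± 0.272 to 3.98 ± 1.63 CPM (edgeR adjusted p = 0.0047), and Acadl, the long-chain dehydrogenase, rose by log2 0.20 ± 0.05 (SE, edgeR adjusted p = 0.020). Fabp4, the adipocyte and macrophage relative of Fabp5, rose from 0.477 ± 0.189 to 1.85 ± 1.34 CPM (edgeR adjusted p = 0.036), with MOP replicate 2 the highest library at 3.39 CPM. Leaving out MODP replicate 1, MODP replicate 3 or MOP replicate 2 gave 1 higher member, Acsl6, so that Fabp4 was not called there. Leaving out MOP replicate 1 or 3 gave 2, as upper-quartile scaling did, and Acadl lost its call in these 5 fits and under upper-quartile scaling.

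Efflux transporters, apolipoproteins and oxysterol enzymes were higher in MOP for 7 of 16 tested members, lower for 1 and not past the test for 8 (median 0.47). That made 43.8% higher and 6.25% lower, beside 16.3% and 14.9% of all tested genes. The lipid transporters Abca9, Abca3 and Abca7 rose, with log2 fold changes of 0.96 ± 0.12, 0.78 ± 0.10 and 0.44 ± 0.07 (SE) at edgeR adjusted p-values of 0.00094, 0.0017 and 0.0027. Abcg4, the closest relative of Abcg1, rose from 6.35 ± 2.19 to 20.8 ± 5.42 CPM (edgeR adjusted p = 0.0054). Beside the -0.73 of Abca1, its relatives Abca2 and Abca5 had log2 fold changes of -0.20 and -0.17 and did not pass the test. Abca5 had 6 to 13 reads in a library. Abca9, Abca3 and Abca7 are relatives of Abca1 too and went the other way. Cyp27a1, the sterol 27-hydroxylase of macrophages, rose from 10.3 ± 1.47 to 18.1 ± 2.19 CPM (edgeR adjusted p = 0.0041). The lower gene, Osbpl1a, was not called without MODP replicate 1 or MOP replicate 1, where the count was 0, and the lower members were 2 without MODP replicate 2, without both replicate 2 libraries and with the replicate number as a block.

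Regulators of these genes were measured last. The test called 7 of 20 higher in MOP (35%) and 1 lower (5%), beside 16.3% and 14.9% of all tested genes. The other 12 stayed uncalled (median 0.19). Nr1h3 and Nr1h2, the LXR receptors that drive Abca1 and Abcg1, averaged 1.90 ± 0.228 and 104 ± 10.3 CPM in the MODP libraries and 2.37 ± 0.616 and 114 ± 10.6 CPM in the MOP libraries, and neither passed the test (edgeR adjusted p = 0.42 and 0.30). Their partner Rxra rose from 9.80 ± 1.64 to 23.6 ± 1.63 CPM (log2 1.27 ± 0.13, SE, edgeR adjusted p = 0.00052). Pparg, the fatty acid sensing receptor of macrophages and adipocytes, rose from 0.985, 1.41 and 0.702 CPM to 3.60, 4.03 and 4.39 CPM (log2 1.97 ± 0.29, SE, edgeR adjusted p = 0.0020). Tfe3 and Tfeb, which drive lysosomal genes, rose too, with log2 fold changes of 0.89 ± 0.10 and 0.78 ± 0.12 (SE) and edgeR adjusted p-values of 0.00056 and 0.0020. Mylip, a ubiquitin ligase induced by LXR, averaged 25.3 ± 5.70 and 26.6 ± 4.38 CPM, a difference that did not pass (edgeR adjusted p = 0.79). Mylip does not stand for all genes driven by LXR, since Abcg1 was called higher and Abca1 was not called. Srebf1 of this list and Arl4c of the efflux list were called higher, by log2 0.23 ± 0.07 and 0.91 ± 0.18 (SE). Their edgeR adjusted p-values were 0.036 and 0.012. Whether LXR targets moved as a set was not tested. Srebf2, the driver of sterol synthesis genes, did not pass (edgeR adjusted p = 0.13), and Scap, which escorts it, was the lower member, at 109 ± 9.10 and 81.3 ± 2.90 CPM (edgeR adjusted p = 0.0034). The lower members were 2 without MODP replicate 2 and under upper-quartile scaling.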

How the data were processed

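Total RNA of the sorted cells was extracted with TriZol and made into TruSeq RNA libraries, per the labels' protocols. The deposited values are raw read counts per Ensembl gene, made by the authors with TopHat 1.4 and HTSeq per the submitters' processing notes. The sources used here give no build, annotation or strand setting, so reads of antisense genes cannot be told apart. Groups came from the cell type label alone. No label says whether replicates are different mice, so each p-value rests on a library-to-library spread that may be technical.

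Symbols were taken from GENCODE M21 by identifier, for 20840 of 22271 genes. Genes were filtered with filterByExpr, scaled by TMM (factors 0.983 to 1.03) and fitted with edgeR 4.0.16 (R 4.3.3, quasi-likelihood, robust, group as the sole factor), with Benjamini-Hochberg adjustment over 12850 genes at a threshold of 0.05. CPM and fold changes were computed here from these counts, and the SE is that of the log2 fold change in the same fit. The 10 members and the 6 pathway lists were chosen with earlier results of these data known. Named pathway genes are the first 4 of each list by adjusted p past the threshold, and other list genes were named after their values were seen. Some list genes counted here are not reported by name. The 31-mers of each member's longest transcript, coding or not, were looked up in the transcripts of all other genes on both strands. No exon of a member overlaps another gene in that annotation. The code was tested on simulated counts, where large changes were recovered and the share of false calls was above the nominal threshold.

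In each group the titles carry WT1, WT2 and again WT1, and the table's columns WT1, WT2 and WT3. Same-numbered columns correlated at 0.589, 0.607 and 0.508 in their deviations from the group means over 9350 genes, and other pairs at -0.449 to 0.0499. Deviations from a group mean sum to 0, so positive values for same-numbered columns force negative ones among the other pairs. The column numbers were used as pairs in the block alternative only. The main fit had no block, so its SEs and adjusted p-values take no account of pairs. The chi-square statistic between any 2 libraries of a group was 7.35 to 34.7 per degree of freedom, so none repeated another within sampling noise. Alternatives were other scalings, filters and tests (DESeq2 1.42.0), the replicate block, and leaving out each library or both replicate 2 libraries. Gene length as the union of exons was chosen after seeing the data.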

Additional observations from a re-analysis of the deposited data

How the results depend on the processing

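Lpl, Plin2, Scarb1, Abcg1 and Apoe kept their direction and their side of the threshold in all 14 alternatives, as did 23 of the 24 pathway genes named by rule, all but Acadl. For Fabp5 the sign turned under upper-quartile scaling (-0.030), and without single libraries the log2 fold change ran from -0.031 to 0.11. For Cd36 it ran from -0.37 to 0.94 without single libraries. With the replicate number as a block or the title number as a block, 1 member was lower (Abca1) in place of 0, and 2 efflux genes were lower in place of 1. With the title number as a block 8 droplet genes were higher in place of 5. The block on the replicate number moved no other count of members or list genes by over 1.5 times. Under upper-quartile scaling 1 member and 2 regulators were lower, in place of 0 and 1, and 2 fatty acid genes were higher in place of 4. With DESeq2 1 member was lower. Upper-quartile scaling moved the median of all genes to -0.06. Without both replicate 2 libraries 1 member, 2 droplet genes and 2 efflux genes were lower. The cause was not tested. Without single libraries the counts over all genes ran from 1281 to 2524 higher and from 1036 to 2275 lower, against 2095 and 1913, and both were lowest without MOP replicate 1. Members ran from 4 to 6 higher and 0 to 1 lower, receptors from 6 to 9 and 2 to 3, lysosomal genes from 7 to 11 and 1 to 2, droplet genes from 4 to 8 and 1 to 2, fatty acid genes from 1 to 4 and 2 to 4, efflux genes from 6 to 9 and 0 to 2, and regulators from 5 to 7 and 1 to 2. Depth limits genes at a few CPM, among them Msr1, Cd36, Pparg, Vldlr and Fabp4.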
